A study of Mus musculus with 45 samples.

Results

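The 10 genes described here are Trp53, which encodes the transcription factor p53, and 9 of its target or partner genes that act in growth arrest and in feedback on p53: Cdkn1a, Mdm2, Mdm4, Ccng1, Ppm1d, Trp53inp1, Psrc1, Sesn1 and Sesn2. They were chosen by name and found by Ensembl gene ID among the 37991 genes of a count table, and all 10 passed the filter on low counts. The RNA came from MEFs, primary fibroblasts cultured from mouse embryos of strain C57BL/6, which were kept overnight in medium with 0.5% bovine calf serum before the stimulus. The p53KO cells are p53-deficient MEFs of 2 biological replicates, called KO-1 and KO-2, and the WT cells are 1 littermate control replicate. The deleted part of Trp53, the age of the embryos and the passage number are not given in the sources used here. Each of these 3 sets of cells was left without agent (0 h) or given 1 of 3 agents, LPS at 100 ng/ml or either cytokine, IL-1b or TNF, at 10 ng/ml, for 0.5, 1, 3 or 8 h, with a separate 0 h sample for each stimulus. That makes 15 WT and 30 p53KO libraries, 45 in all. The design offers p53-deficient MEFs as cells that can be propagated for longer, and asks whether they respond to NF-kB-activating stimuli as WT cells do.

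p53 is held at a low level in unstressed cells, chiefly by Mdm2, a ubiquitin ligase that marks it for degradation, together with Mdm4, a related protein that binds and inhibits it. When p53 is released it activates Cdkn1a, whose product p21 inhibits cyclin-dependent kinases and stops the cell cycle, and it activates Mdm2 itself and the phosphatase gene Ppm1d, which shut the response off again. Cultured MEFs are known for a p53 response to growth outside the embryo. IL-1b, TNF and LPS act through surface receptors that activate NF-kB, a separate family of transcription factors.

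The libraries held between 5619870 and 15355994 counts in genes, with 16264 to 17941 genes at 1 count or more. All 10 fibroblast markers had counts in every library, with Col1a1 at a median of 10629 CPM in WT and 10496 CPM in p53KO. Others of the 10 differed more between the genotypes, with medians in WT and p53KO of 470 and 52.8 CPM for S100a4, 524 and 286 CPM for Thy1, 4268 and 2858 CPM for Vim and 2499 and 3189 CPM for Col3a1. Of the other cell types looked for, the summed level of 7 macrophage markers was 361 to 586 CPM in WT and 254 to 503 CPM in p53KO, and that of 5 neural markers 160 to 342 and 227 to 522 CPM. The 5 endothelial markers summed to 10.1 to 21.6 CPM in WT and up to 27.5 CPM in p53KO. The 5 epithelial markers summed to 19.5 to 42.6 CPM in WT and 43.1 to 81.6 CPM in p53KO, and the 5 muscle markers to 27.3 to 49.4 and 84.0 to 157 CPM. Epcam was at 0 in 5 libraries, Myod1 in 32 and Elavl3 in 21. Other markers of these lists had counts in every library and made up much of the sums. Medians in WT and p53KO were 324 and 205 CPM for the macrophage marker Lyz2 and 128 and 201 CPM for the neural marker Nes. They were 33.9 and 118 CPM for the muscle marker Des and 4.99 and 21.5 CPM for the epithelial marker Krt18. The part of these differences in the results between genotypes was not tested. CPM is a gene's count scaled to a common library total in genes, after TMM scaling; it is not divided by gene length, so levels are compared between libraries and not between genes. Fewer cells that express a gene and less RNA per cell cannot be told apart in these bulk samples.

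The promoters show what DNA lies beside the starts of these genes. Windows of 300 bases around the start (250 before, 50 after) were available from RefSeq for 9 of the 10 genes (GRCm38.p6, 13 windows; Trp53inp1 was not matched), and each was searched on both strands for the decamer of the p53 response element and for the kB site consensus. The p53 decamer was found for 6 of the 9 genes (Trp53, Cdkn1a, Mdm2, Ccng1, Ppm1d and Sesn1), in 6 of the 13 windows, and 8.36% of 32851 windows of all genes hold it. The kB site was found in 1 of the 13 windows, that of Trp53, where GGGACTTTCC spans the start (chr11:69580354-69580363), and 8.46% of all windows hold it. A match is a run of letters, and binding was not measured. The decamer is only a part of a p53 response element, and whole elements were not searched for. Cdkn1a also has a window with no match (chr17:29093519-29093768), and so does Sesn1. The 250 bases before the start are printed below for 3 genes that were far lower without p53 and hold the decamer (Cdkn1a, Mdm2, Ccng1), for Ppm1d, which holds it and did not differ between genotypes, and for Psrc1, which was far lower without p53 and whose windows hold no match. Capitals mark the p53 decamer, and each line runs 5′ to 3′ towards the start on the gene's own strand.
Cdkn1a (chr17:29090729-29090978, plus strand): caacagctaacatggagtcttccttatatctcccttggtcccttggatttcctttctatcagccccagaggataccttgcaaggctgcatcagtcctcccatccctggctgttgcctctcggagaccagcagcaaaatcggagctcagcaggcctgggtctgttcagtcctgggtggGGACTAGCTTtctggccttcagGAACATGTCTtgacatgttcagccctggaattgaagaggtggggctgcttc
Mdm2 (chr10:117710759-117711008, minus strand): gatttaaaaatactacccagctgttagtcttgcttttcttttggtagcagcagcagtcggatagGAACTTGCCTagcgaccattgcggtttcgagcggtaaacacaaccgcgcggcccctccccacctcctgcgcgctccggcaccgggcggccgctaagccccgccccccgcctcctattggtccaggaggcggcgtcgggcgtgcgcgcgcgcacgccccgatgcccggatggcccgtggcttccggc
Ccng1 (chr11:40755287-40755536, minus strand): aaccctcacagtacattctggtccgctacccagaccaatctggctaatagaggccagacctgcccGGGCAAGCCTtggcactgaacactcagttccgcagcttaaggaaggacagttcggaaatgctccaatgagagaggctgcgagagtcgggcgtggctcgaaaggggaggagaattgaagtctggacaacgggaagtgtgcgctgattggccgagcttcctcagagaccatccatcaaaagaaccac
Ppm1d (chr11:85311004-85311253, plus strand): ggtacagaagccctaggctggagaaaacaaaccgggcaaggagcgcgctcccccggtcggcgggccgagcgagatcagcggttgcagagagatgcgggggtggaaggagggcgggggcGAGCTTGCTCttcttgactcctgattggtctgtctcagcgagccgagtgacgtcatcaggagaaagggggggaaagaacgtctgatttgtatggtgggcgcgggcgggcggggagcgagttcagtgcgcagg
Psrc1 (chr3:108383554-108383803, plus strand): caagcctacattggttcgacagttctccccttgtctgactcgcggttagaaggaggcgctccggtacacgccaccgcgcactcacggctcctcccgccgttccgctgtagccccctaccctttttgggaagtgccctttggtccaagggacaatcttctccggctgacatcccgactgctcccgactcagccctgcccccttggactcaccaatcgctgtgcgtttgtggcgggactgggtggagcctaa

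Without p53, Cdkn1a, Psrc1, Ccng1 and Trp53inp1 were at 8.10% to 15.3% of their WT level, and Mdm2 and Trp53 at about 32% of it. Sesn2 was lower by a smaller step, Sesn1 was higher, and Mdm4 and Ppm1d did not pass the test. For this comparison the 15 libraries of a replicate were added up, giving 1 WT total against 2 p53KO totals. Only KO-1 and KO-2 inform the spread, and the fit draws each gene's spread towards that of genes at large. The p-values thus lean on this sharing over genes. A difference between genotypes cannot be told apart from a peculiarity of the 1 WT replicate. Of the 10 genes 7 were lower and 1 was higher in p53KO (adjusted p under 0.05), where 19.2% of 12918 genes tested were lower and 21.1% higher. In 6 of the 10 every WT library lay above every p53KO library, which 1.38% of 13851 genes showed. The median log2 difference was -1.65 over the 10 genes and 0.00 over all genes tested.

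Trp53 itself (ENSMUSG00000059552, mm9 chr11:69393861-69405375, plus strand) checks the labels. It lay between 158 and 293 CPM in WT (median 198), between 50.9 and 86.5 CPM in KO-1 (median 65.4) and between 53.9 and 83.1 CPM in KO-2 (median 61.8). The lowest WT library was well above the highest p53KO library, and reads were still counted to the gene in all 30 p53KO libraries (402 to 1231 counts). The log2 difference p53KO minus WT was -1.64 (SE 0.05, adjusted p = 1.63e-06), a level of 32.0% of WT. The table counts whole genes, so the parts of Trp53 that gave these reads are not resolved.

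**Figure D1:**
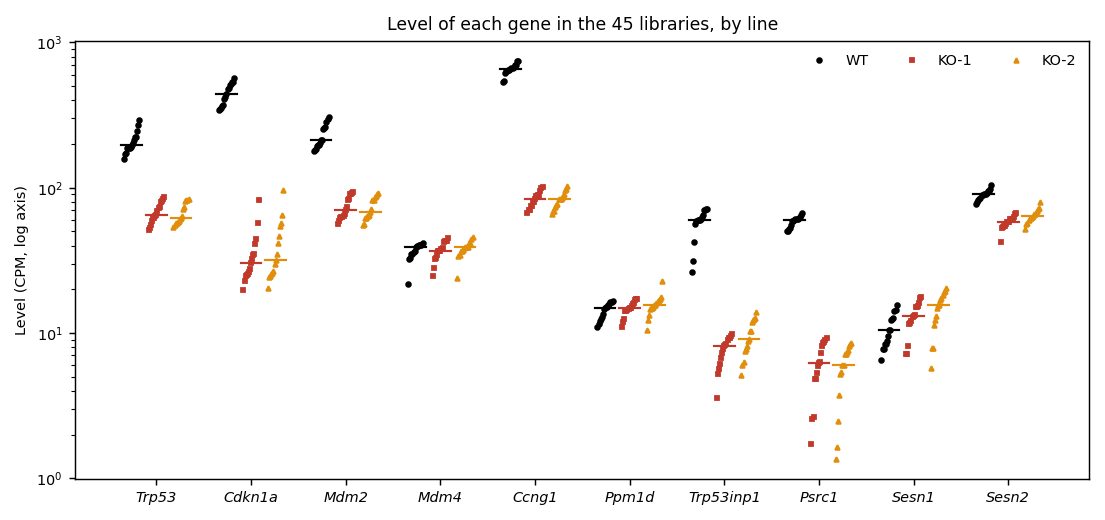
Level of each gene in CPM (log axis) in the 15 libraries of WT (black circles), KO-1 (red squares) and KO-2 (orange triangles), sorted within each, with the median as a line. WT lies above both p53KO replicates for Trp53, Cdkn1a, Mdm2, Ccng1, Trp53inp1 and Psrc1, and the lines overlap for Mdm4, Ppm1d, Sesn1 and Sesn2.

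Among the genes of arrest, Cdkn1a (ENSMUSG00000023067, mm9 chr17:29227924-29237667, plus strand) had the largest difference. Its level was 341 to 568 CPM in WT (median 444), 19.7 to 82.2 CPM in KO-1 (median 30.1) and 20.4 to 95.8 CPM in KO-2 (median 31.7), so that the highest p53KO library stayed far below the lowest WT one. The log2 difference was -3.63 (SE 0.07, adjusted p = 3.17e-07). Psrc1 (ENSMUSG00000068744, mm9 chr3:108186757-108191149, plus strand), which encodes a microtubule-binding protein of the mitotic spindle, lay at 50.1 to 67.0 CPM in WT (median 60.2) and at 1.36 to 9.23 CPM in p53KO (median 6.11), with 10 to 114 counts per p53KO library. Its log2 difference was -3.25 (SE 0.06, adjusted p = 2.90e-07), and KO-1 and KO-2 differed from WT by -3.23 and -3.27 when taken alone.

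Ccng1 (ENSMUSG00000020326, mm9 chr11:40562054-40568813, minus strand) encodes cyclin G1, which brings a phosphatase to Mdm2. It lay at 536 to 749 CPM in WT (median 661) and at 66.1 to 103 CPM in p53KO (median 83.5), with no overlap. The log2 difference was -2.96 (SE 0.05, adjusted p = 2.72e-07), 12.9% of WT. Trp53inp1 (ENSMUSG00000028211, mm9 chr4:11083578-11101526, plus strand), whose stress-induced product binds p53-activating kinases and takes part in autophagy, lay at 26.5 to 71.7 CPM in WT (median 60.2) and at 3.59 to 13.9 CPM in p53KO (median 8.33). The WT libraries again all lay above, and the log2 difference was -2.71 (SE 0.11, adjusted p = 6.91e-06). It also differed most between the p53KO replicates, at -2.90 in KO-1 and -2.54 in KO-2 against WT.

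The feedback inhibitors did not move as a set. Mdm2 (ENSMUSG00000020184, mm9 chr10:117125944-117147814, minus strand) lay at 178 to 306 CPM in WT (median 214) and at 55.5 to 93.6 CPM in p53KO (median 69.3), a log2 difference of -1.66 (SE 0.05, adjusted p = 1.33e-06) and 31.7% of WT. Its relative Mdm4 (ENSMUSG00000054387, mm9 chr1:134886422-134921943, minus strand) lay at 21.7 to 41.5 CPM in WT (median 39.4) and at 23.9 to 45.9 CPM in p53KO (median 37.9). The ranges overlap nearly whole, and the log2 difference was 0.02 with a 95% interval of -0.10 to 0.15 (adjusted p = 0.770). Ppm1d (ENSMUSG00000020525, mm9 chr11:85124746-85160568, plus strand) lay at 10.98 to 16.7 CPM in WT (median 15.0) and at 10.5 to 22.6 CPM in p53KO (median 15.0). Its log2 difference was 0.06 with an interval of -0.12 to 0.24 (adjusted p = 0.547).

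The sestrins, stress proteins that restrain the growth kinase mTORC1, differed in opposite directions. Sesn2 (ENSMUSG00000028893, mm9 chr4:132047947-132066416, minus strand) lay at 76.7 to 105 CPM in WT (median 90.0) and at 42.4 to 80.3 CPM in p53KO (median 61.0), so that only the ends of the ranges met. Its log2 difference was -0.55 (SE 0.07, adjusted p = 0.000713), 68.5% of WT. Sesn1 (ENSMUSG00000038332, mm9 chr10:41530380-41628230, plus strand) lay at 6.54 to 15.5 CPM in WT (median 10.5) and at 5.78 to 20.3 CPM in p53KO (median 14.0). Its log2 difference was 0.39 (SE 0.10, adjusted p = 0.0150), which was 0.30 in KO-1 and 0.47 in KO-2. In the 0 h libraries alone the same 8 genes passed, with Cdkn1a at -3.93, Psrc1 at -2.79, Sesn1 at 0.38 (adjusted p = 0.0296) and Sesn2 at -0.62.

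Most of a wider list of 30 p53 targets, with roles in apoptosis, DNA repair and metabolism, was also lower without p53. Of the 30, 23 were lower, 2 higher (Gadd45a and Ddb2) and 5 did not pass, beside 19.2% of all genes lower and 21.1% higher, with a median log2 difference of -0.87. The smallest adjusted p-values belonged to Ak1, an adenylate kinase (-2.73, SE 0.06, adjusted p = 5.98e-07), Phlda3, an inhibitor of Akt (-2.27, SE 0.05), Eda2r, a receptor of the TNF receptor family (-5.17, SE 0.12), and Zmat3, an RNA-binding protein (-2.05, SE 0.05). Eda2r lay at 45.6 to 84.7 CPM in WT and at 0.833 to 4.14 CPM in p53KO.

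**Figure D2:**
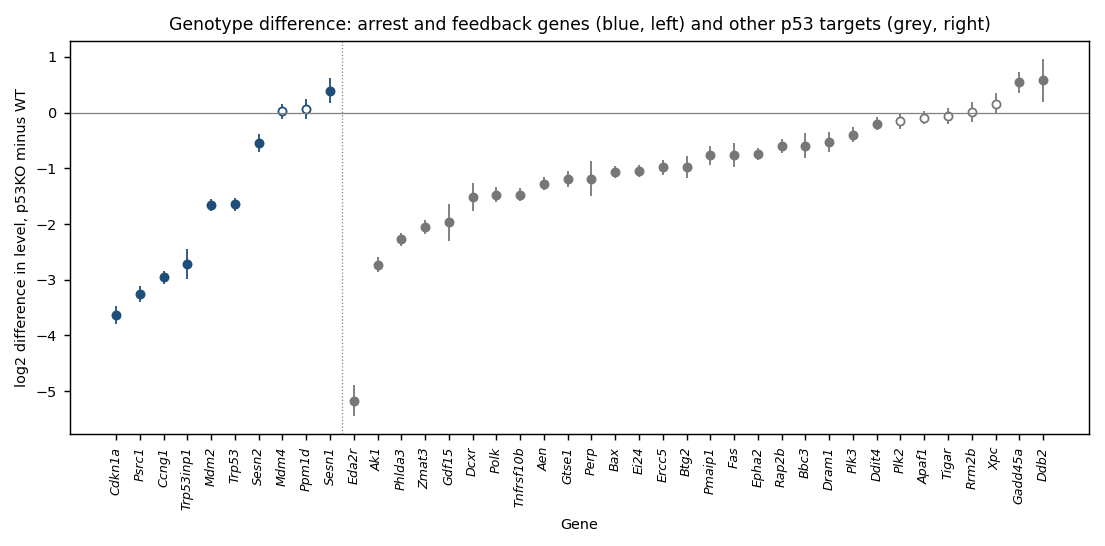
Log2 difference in level, p53KO minus WT, with its 95% interval, for the 10 arrest and feedback genes (blue) and 30 other p53 targets (grey), sorted within each; filled points passed an adjusted p of 0.05. Cdkn1a at -3.63 and Psrc1 at -3.25 are the lowest blue points, Eda2r at -5.17 is the lowest grey one, and Sesn1, Gadd45a and Ddb2 are the filled points above 0.

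Of 15 genes that act above p53, 6 were higher and 3 lower in p53KO, beside 21.1% and 19.2% of all genes, with a median of 0.12. Cdkn2a, whose locus encodes the Mdm2 inhibitor Arf and the CDK inhibitor p16, was higher by 2.20 on the log2 scale (SE 0.10, adjusted p = 9.69e-06), at 19.3 to 30.8 CPM in WT and 85.7 to 133 CPM in p53KO. Rchy1, a ubiquitin ligase for p53, was at -0.45, the DNA damage kinase Atm at 0.38 and the acetyltransferase Ep300 at 0.35. Of 10 paralogs of the described genes and other CDK inhibitors, 7 were tested, 6 were higher and none was lower, beside the same shares. Cdkn1c, the p57 inhibitor, was at 2.09 (SE 0.07, adjusted p = 1.74e-06), Cdkn2b at 0.70, Cdkn1b at 0.42 and the cyclin gene Ccng2 at 0.27.

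The stimuli moved the described genes in both genotypes, most often at 3 and 8 h. Changes were taken against the 0 h library of the same series, and 3 sets of counts follow: each stimulus and time alone, the mean over the 3 stimuli, and the difference of that mean between genotypes. Each p53KO change compares 2 libraries with 2. A WT change for a single stimulus compares 1 library with 1. WT changes, single or averaged, and the differences between genotypes take their spread from the p53KO pairs. They thus assume that WT cultures vary as those do. The 3 stimulus series of a replicate count as separate samples here. A genotype difference in change cannot be told apart from a peculiarity of the 1 WT replicate. The pairing of KO-1 and KO-2 across samples was left out of these fits, and runs with it are given below. As a check that the stimuli acted, 6 of 6 NF-kB response genes were higher at each averaged time in both genotypes. Between 0.7% and 62.6% of all genes passed in either direction in these contrasts. The 6 genes were chosen with earlier results of these data known, so the count is a check and not a finding. Nfkbia, the inhibitor of NF-kB that NF-kB itself activates, was higher at 3 h by 3.57 in WT and 3.83 in p53KO on the log2 scale.

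In p53KO, 41 of the 120 gene and stimulus-time tests passed, 19 higher and 22 lower. After IL-1b, 1 of the 10 genes passed at 0.5 h, 3 at 1 h, 6 at 3 h and 5 at 8 h, beside 7.39%, 5.94%, 42.7% and 24.4% of all genes. After TNF the counts were 0, 2, 6 and 5, beside 0.751%, 5.85%, 36% and 28.6%. After LPS they were 0, 2, 7 and 4, beside 0.527%, 5.31%, 44.1% and 34.2%. The counts of 4 to 7 of 10 at 3 and 8 h stand beside 24.4% to 44.1% of all genes, so that passing at these times was common among genes at large. In WT 19 of 120 passed, 13 higher and 6 lower, beside 9.23% of all genes over the same 12 contrasts. With each library of a contrast left out in turn, 27 of the 41 p53KO calls held throughout.

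Averaged over the stimuli, 1, 6, 7 and 8 of the 10 genes passed in p53KO at 0.5, 1, 3 and 8 h, where 3.34%, 19.6%, 62.6% and 52% of all genes did. In WT 0, 4, 6 and 4 passed, where 0.7%, 14.3%, 44.8% and 27.5% did. The change itself differed between the genotypes for 0, 0, 3 and 3 genes, where 0.0217%, 0.736%, 9.98% and 4.01% of all genes did. The 3 genes at 3 h were Cdkn1a, Mdm2 and Psrc1, and the 3 at 8 h were Mdm2, Psrc1 and Ccng1. Tested over the 4 times of 1 stimulus, the course differed between genotypes for 2 genes (IL-1b), 2 genes (TNF) and 3 genes (LPS), beside 5.74%, 0.462% and 2.66% of all genes. These 7 calls were Mdm2 and Psrc1 for every stimulus and Cdkn1a for LPS.

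**Figure D3:**
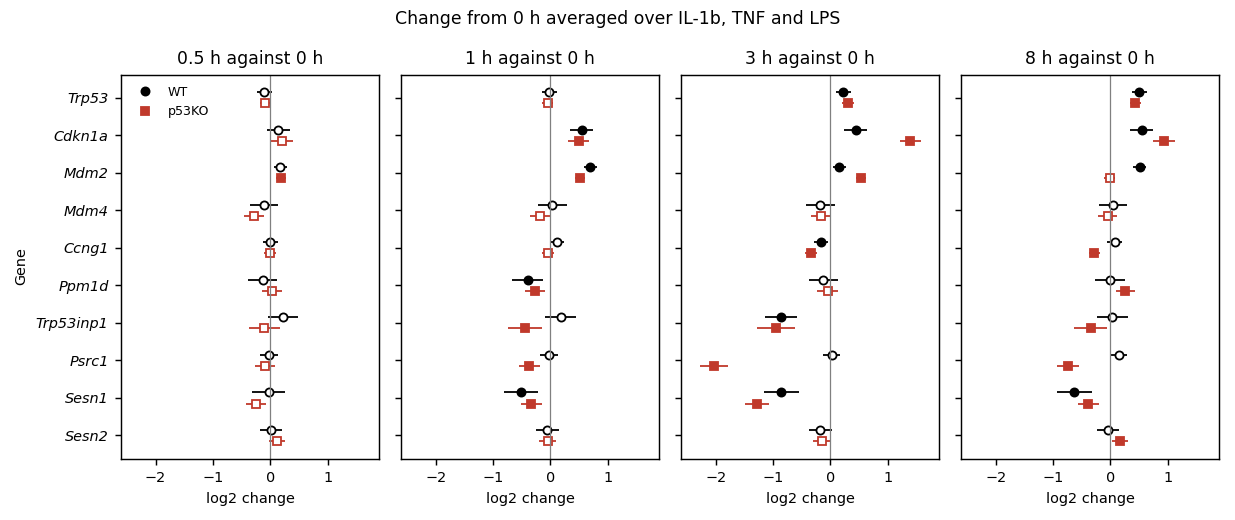
Log2 change from 0 h averaged over IL-1b, TNF and LPS, with its 95% interval, for each gene at 0.5, 1, 3 and 8 h in WT (black circles) and p53KO (red squares); filled points passed an adjusted p of 0.05. At 3 h the p53KO points of Cdkn1a (1.40) and Mdm2 (0.53) lie to the right of WT and that of Psrc1 (-2.03) lies far to the left, and at 8 h the p53KO point of Mdm2 is back at -0.02.

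Cdkn1a rose after the stimuli with and without p53. With LPS the WT libraries read 348, 363, 509, 537 and 568 CPM at 0, 0.5, 1, 3 and 8 h. In KO-1 the same course was 24.6, 25.0, 25.5, 82.2 and 57.0 CPM, and in KO-2 it was 20.4, 26.8, 29.95, 95.8 and 64.4 CPM. At 1 h WT and KO-2 stood above their 0 h libraries and KO-1 was close to its own, and both p53KO replicates stood highest at 3 h. The p53KO log2 change was 1.99 at 3 h (SE 0.15, adjusted p = 3.67e-11) and 1.44 at 8 h (SE 0.15, adjusted p = 2.22e-08), and the WT change was 0.63 at 3 h (SE 0.17, adjusted p = 0.00729) and 0.71 at 8 h (SE 0.17, adjusted p = 0.00420). The LPS course differed between genotypes (adjusted p = 0.000256 over the 4 times).

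The p53KO change was smaller after the cytokines than after LPS at 3 and 8 h and larger at 1 h, where it was 0.69 (IL-1b), 0.48 (TNF) and 0.31 (LPS) on the log2 scale; the stimuli were not tested against each other. After IL-1b it read 355, 418, 535, 479 and 517 CPM in WT, 22.9, 27.5, 34.9, 44.5 and 34.2 CPM in KO-1 and 24.4, 26.1, 41.6, 54.3 and 46.5 CPM in KO-2. After TNF it read 341, 369, 482, 409 and 444 CPM in WT, 19.7, 26.3, 30.1, 40.9 and 32.3 CPM in KO-1 and 24.5, 25.4, 31.7, 57.0 and 35.1 CPM in KO-2. In both series WT stood highest at 1 h and both p53KO replicates at 3 h. The p53KO log2 change at 3 h was 1.06 after IL-1b (SE 0.15, adjusted p = 3.68e-06) and 1.14 after TNF (SE 0.16, adjusted p = 4.47e-06). At 1 h it was 0.69 after IL-1b (adjusted p = 0.00390), a call lost without the KO-1 library at 0 h (0.64, adjusted p = 0.0677) or the KO-2 library at 1 h (0.56, adjusted p = 0.0949). At 8 h it was 0.77 after IL-1b (SE 0.15) and 0.59 after TNF (SE 0.16), the second lost without the KO-1 library at 0 h (0.45, adjusted p = 0.111).

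Averaged over the 3 stimuli, Cdkn1a rose in WT by 0.55 at 1 h (SE 0.10, adjusted p = 0.000232), 0.44 at 3 h (SE 0.10, adjusted p = 0.000619) and 0.54 at 8 h (SE 0.10, adjusted p = 0.000113) on the log2 scale. In p53KO it rose by 0.49 (SE 0.09, adjusted p = 0.000273), 1.40 (SE 0.09, adjusted p = 6.70e-13) and 0.93 (SE 0.09, adjusted p = 3.51e-09). The difference between the genotypes was -0.05 at 1 h (95% interval -0.33 to 0.22), 0.95 at 3 h (SE 0.13, adjusted p = 4.41e-05) and 0.39 at 8 h (interval 0.12 to 0.66, adjusted p = 0.101). The relative change at 3 h was thus larger without p53, and the absolute one was not. In CPM the 3 h gain after LPS was 189.7 in WT and 57.6 and 75.4 in KO-1 and KO-2, after IL-1b 124 against 21.5 and 29.9, and after TNF 67.7 against 21.3 and 32.5.

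With the replicate as a block, that is, with 1 common offset between KO-2 and KO-1 fitted over all p53KO samples, several Cdkn1a calls were gained. The 8 h difference between genotypes was then 0.39 (adjusted p = 0.0146; over all 18 alternatives 0.00374 to 0.182). The difference over the 4 times then passed for IL-1b (adjusted p = 0.0352; 0.00422 to 0.594 over its alternatives) and for TNF (adjusted p = 0.0114; 5.26e-05 to 0.655). Of single changes, p53KO at 1 h of TNF (0.49), and WT at 3 h of IL-1b (0.43), at 1 and 8 h of TNF (0.50 and 0.38) and at 1 h of LPS (0.55) passed with the block and not without it. The WT values are the same with and without the block, which holds no WT library. Their tests differ in the spread, which is taken from the p53KO pairs.

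**Figure D4:**
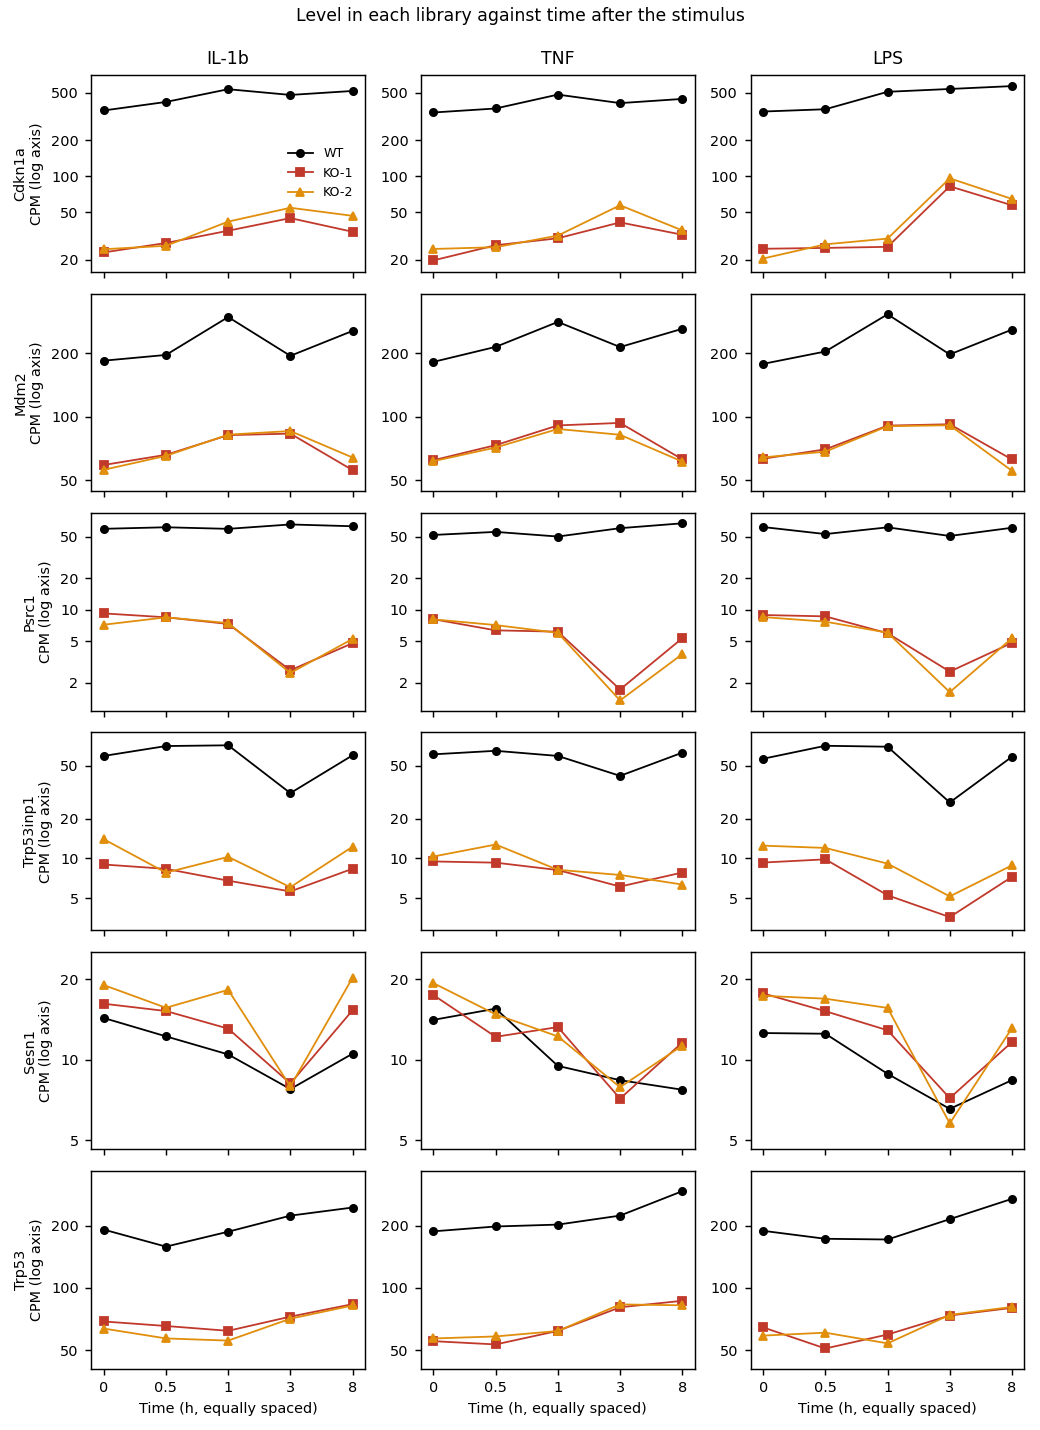
Level in CPM (log axis) by hours of IL-1b, TNF or LPS (times equally spaced) for 6 of the genes, 1 point per library, joined within WT (black circles), KO-1 (red squares) and KO-2 (orange triangles). WT Mdm2 has peaks at 1 h and again at 8 h while p53KO Mdm2 is high at 1 and 3 h, Psrc1 is lowest at 3 h in every p53KO series, and Trp53inp1 and Sesn1 are lower at 3 h than at 0 h in every line.

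Mdm2 had 2 maxima in WT and 1 in p53KO. After LPS it read 178, 204, 306, 198 and 259 CPM in WT, 63.4, 70.2, 90.9, 92.3 and 62.8 CPM in KO-1, and 64.3, 68.5, 90.3, 91.3 and 55.5 CPM in KO-2. After IL-1b the WT course was 185, 197, 297, 195 and 256 CPM and after TNF 182, 215, 282, 214 and 262 CPM, so that 1 h and 8 h stood above 3 h for every stimulus. In p53KO after IL-1b and TNF, 1 and 3 h stood at 81.9 to 93.6 CPM and 0 and 8 h at 55.9 to 64.2 CPM in both replicates. The p53KO log2 change was 0.51 to 0.53 at 1 h and 0.51 to 0.55 at 3 h of the 3 stimuli, and all 6 of these calls held with any 1 library left out.

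Averaged over stimuli, Mdm2 rose in WT by 0.70 at 1 h (SE 0.06, adjusted p = 3.38e-10), by 0.15 at 3 h (SE 0.06, adjusted p = 0.0268) and by 0.51 at 8 h (SE 0.06, adjusted p = 6.99e-08). In p53KO it rose by 0.18 at 0.5 h (adjusted p = 0.0158), 0.51 at 1 h (SE 0.04, adjusted p = 5.61e-10) and 0.53 at 3 h (SE 0.04, adjusted p = 8.03e-11), and stood at -0.02 at 8 h (95% interval -0.10 to 0.07). The WT call at 3 h was lost with DESeq2 (adjusted p = 0.0671) and with no filter on low counts (adjusted p = 0.064). The p53KO call at 0.5 h was lost without the KO-1 LPS library at 0 h or 0.5 h, or the KO-2 IL-1b library at 0 h (adjusted p between 0.0509 and 0.0559). The genotypes differed at 3 h by 0.37 (SE 0.07, adjusted p = 0.00109) and at 8 h by -0.52 (SE 0.07, adjusted p = 7.74e-05), with opposite signs. The 1 h difference of -0.18 did not pass (interval -0.33 to -0.04, adjusted p = 0.348). Over the 4 times the adjusted p was 0.000442 for IL-1b, 9.39e-05 for LPS and 0.00989 for TNF, the last lost without either p53KO TNF library at 8 h (adjusted p = 0.0528 without KO-1 and 0.0523 without KO-2).

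Psrc1 fell in p53KO, and in WT no change of it passed. At 3 h the 6 p53KO libraries stood at 2.64 and 2.49 CPM (IL-1b), 1.73 and 1.36 CPM (TNF) and 2.56 and 1.63 CPM (LPS), in KO-1 and KO-2 in turn, against 7.19 to 9.23 CPM at 0 h. The 3 WT libraries at 3 h stood at 65.3, 60.2 and 50.7 CPM, against 51.8 to 61.7 CPM at 0 h. All p53KO libraries at 3 h lay below all those at 0 h, and the WT ranges overlapped. In CPM the 3 h change after LPS was -11 in WT and -6.34 and -6.88 in KO-1 and KO-2. After IL-1b it was 5.96 against -6.58 and -4.70, and after TNF 8.32 against -6.38 and -6.73. The absolute fall after LPS was thus not smaller in WT, where the starting level was far higher. The p53KO libraries at 3 h hold 10 to 24 counts each for this gene, and 10 is the lowest count of any of the 10 genes in any library. The p53KO log2 change at 3 h was -1.68 after IL-1b (SE 0.18, adjusted p = 7.04e-08), -2.37 after TNF (SE 0.22, adjusted p = 6.69e-09) and -2.05 after LPS (SE 0.20, adjusted p = 5.40e-09).

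Averaged over stimuli the Psrc1 change at 3 h was -2.03 in p53KO (SE 0.12, adjusted p = 9.29e-14) and 0.02 in WT (95% interval -0.13 to 0.17), a difference of -2.05 (SE 0.14, adjusted p = 7.44e-10). At 8 h it was -0.74 (SE 0.09, adjusted p = 2.35e-07) and 0.14 (interval -0.01 to 0.29), a difference of -0.88 (SE 0.12, adjusted p = 7.51e-05). At 1 h p53KO was at -0.37 (SE 0.09, adjusted p = 0.00299). Over the 4 times the courses differed for IL-1b (adjusted p = 4.60e-05), TNF (adjusted p = 2.14e-05) and LPS (adjusted p = 0.000108). Of the single changes, -0.53 at 1 h of LPS was lost without any of its 4 libraries, and -0.71 at 8 h of IL-1b without the KO-1 library at 0 h (-0.52, adjusted p = 0.0854).

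Ccng1 followed at a small scale. In p53KO it stood at 66.1 to 87.1 CPM at 3 h and 70.7 to 76.9 CPM at 8 h, against 84.3 to 99.6 CPM at 0 h. The averaged p53KO change was -0.34 at 3 h (SE 0.05, adjusted p = 1.44e-06) and -0.28 at 8 h (SE 0.05, adjusted p = 3.19e-05). In WT it was -0.17 at 3 h (SE 0.06, adjusted p = 0.0312, and 0.118 with no filter on low counts) and 0.07 at 8 h (95% interval -0.06 to 0.20). The difference between genotypes passed at 8 h (-0.35, SE 0.08, adjusted p = 0.0102) and not at 3 h (-0.17, interval -0.34 to -0.01, adjusted p = 0.167). Of the single p53KO changes, that at 3 h of TNF (-0.32) was lost without the KO-2 library at 3 h (-0.17, adjusted p = 0.157), and that at 8 h of IL-1b (-0.25) without any of 3 of its 4 libraries (adjusted p up to 0.211).

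Trp53inp1 and Sesn1 fell at 3 h in both genotypes. Trp53inp1 stood in WT at 56.7 to 61.2 CPM at 0 h, at 31.1 (IL-1b), 42.1 (TNF) and 26.5 CPM (LPS) at 3 h, and at 58.7 to 63.0 CPM at 8 h. In p53KO it stood at 8.98 to 13.9 CPM at 0 h and at 3.59 to 7.48 CPM at 3 h, so that at 3 h all libraries of either genotype lay below their own 0 h range. Averaged over stimuli the change at 3 h was -0.86 in WT (SE 0.14, adjusted p = 1.52e-05) and -0.95 in p53KO (SE 0.16, adjusted p = 1.39e-05). The difference between genotypes was -0.09, with an interval of -0.52 to 0.35. At 1 h p53KO was at -0.44 (adjusted p = 0.0285) and WT at 0.18 (interval -0.09 to 0.45), and their difference of -0.62 did not pass (adjusted p = 0.206); with the replicate as a block it was -0.61 (adjusted p = 0.0166; over its 18 alternatives 0.000871 to 0.556).

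The p53KO calls of Trp53inp1 at 1 h and 8 h (-0.34, adjusted p = 0.0450) were each lost without any of 6 and 8 of their 12 libraries in turn. Of the single p53KO changes, -1.32 at 3 h of LPS (SE 0.29, adjusted p = 0.000576) held with any library left out. That of -0.97 at 3 h of IL-1b (SE 0.26, adjusted p = 0.00404) was lost without the KO-2 library at 0 h (-0.62, adjusted p = 0.111), the p53KO library in which this gene was highest. With the replicate as a block, p53KO at 0.5 h of IL-1b (-0.49), 3 h of TNF (-0.54) and 1 and 8 h of LPS (-0.60 and -0.44), WT at 3 h of TNF (-0.54), and the IL-1b difference over the 4 times (adjusted p = 0.0447; 0.00947 to 0.503 over its alternatives) passed as well.

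Sesn1 stood in WT at 12.6 to 14.3 CPM at 0 h, 6.54 to 8.38 CPM at 3 h and 7.72 to 10.5 CPM at 8 h. In p53KO it stood at 16.2 to 19.4 CPM at 0 h, 5.78 to 8.15 CPM at 3 h and 11.3 to 20.3 CPM at 8 h. The p53KO libraries all lay above WT at 0 h, and at 3 h the genotypes overlapped. The averaged change at 3 h was -0.86 in WT (SE 0.15, adjusted p = 4.08e-05) and -1.29 in p53KO (SE 0.10, adjusted p = 5.30e-11), with a difference of -0.43 that did not pass (interval -0.81 to -0.05, adjusted p = 0.145). At 8 h it was -0.63 in WT (SE 0.15, adjusted p = 0.00200) and -0.39 in p53KO (SE 0.09, adjusted p = 0.000819). At 1 h it was -0.51 in WT (adjusted p = 0.0189) and -0.33 in p53KO (adjusted p = 0.00798), and DESeq2 called neither (adjusted p = 0.0809 and 0.0600).

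Of the single Sesn1 changes in p53KO, -1.13 (IL-1b), -1.30 (TNF) and -1.44 (LPS) at 3 h and -0.68 at 8 h of TNF held with any library left out. The change of -0.53 at 1 h of TNF was lost without any of its 4 libraries, and -0.50 at 8 h of LPS without any of 3. With the block, p53KO at 0.5 h (averaged, -0.25) and WT at 8 h of TNF (-0.87) passed as well. Sesn2 moved little: the averaged change lay between -0.18 and 0.17 in both genotypes at every time, and 0.17 at 8 h in p53KO passed (adjusted p = 0.0494) but was lost without any of 9 of the 12 libraries. With the block, the 3 h change of Sesn2 passed in p53KO (-0.15) and WT (-0.18), and so did p53KO LPS at 3 h (-0.30).

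The Trp53 transcript rose late, in WT and in the p53KO cells alike. In WT it stood at 187 to 191 CPM at 0 h and at 244 (IL-1b), 293 (TNF) and 269 CPM (LPS) at 8 h. In p53KO it stood at 55.2 to 68.7 CPM at 0 h and 80.0 to 86.5 CPM at 8 h, and all 8 h libraries lay above all 0 h libraries in both genotypes. The averaged change at 8 h was 0.50 in WT (SE 0.06, adjusted p = 7.06e-07) and 0.43 in p53KO (SE 0.05, adjusted p = 5.09e-08), a difference of -0.07 (95% interval -0.23 to 0.09). At 3 h it was 0.22 in WT (SE 0.06, adjusted p = 0.00568) and 0.31 in p53KO (SE 0.05, adjusted p = 7.37e-06). The p53KO rise was largest after TNF, 0.54 at 3 h and 0.59 at 8 h. The rise of 0.26 at 3 h of LPS was lost without any of 3 of its 4 libraries (adjusted p up to 0.152), and that of 0.32 at 8 h of IL-1b without the KO-2 library at 0 h (0.27, adjusted p = 0.0828).

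Mdm4 and Ppm1d, level between genotypes, passed in a few contrasts. Mdm4 was at 24.5 and 23.9 CPM in KO-1 and KO-2 at 0.5 h of IL-1b, a log2 change of -0.70 (SE 0.14, adjusted p = 0.00363), and at 21.7 CPM in WT at 3 h of IL-1b, a change of -0.89 (SE 0.21, adjusted p = 0.00302). These 3 libraries have the lowest Mdm4 levels of all 45. Within each library, a gene's log2 level relative to its replicate's mean was also correlated with transcript length, across 9559 genes. Spearman rho was -0.22, -0.34 and -0.26 in these 3 libraries, the lowest of all 45, and -0.16 to 0.23 elsewhere. With each library's trend with length and GC content removed, the changes were -0.64 (adjusted p = 0.0102) and -0.80 (adjusted p = 0.00694). The p53KO call was lost without the KO-1 library at 0 h (-0.59, adjusted p = 0.113) or the KO-2 library at 0.5 h (-0.69, adjusted p = 0.0558). Averaged over stimuli no Mdm4 change passed; with the block, that in p53KO at 0.5 h did (-0.29, adjusted p = 0.0280; 0.00116 to 0.204 over its alternatives).

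Ppm1d was lower at 1 h in both genotypes, by -0.40 in WT (SE 0.13, adjusted p = 0.0381) and -0.26 in p53KO (SE 0.09, adjusted p = 0.0288), and higher at 8 h in p53KO (0.26, SE 0.08, adjusted p = 0.00948). The p53KO libraries stood at 14.1 to 16.1 CPM at 0 h, 10.5 to 16.6 CPM at 1 h and 16.9 to 22.6 CPM at 8 h, so that 1 h overlapped 0 h and 8 h lay wholly above it. The 3 WT libraries at 1 h (up to 12.8 CPM) lay below the 3 at 0 h (15.0 to 16.4 CPM). DESeq2 called none of these 3 changes (adjusted p = 0.160, 0.152 and 0.0502). The p53KO call at 1 h was lost without any of 6 of the 12 libraries, and the one at 8 h without the KO-2 IL-1b library at 8 h (0.19, adjusted p = 0.0567), where Ppm1d was highest. The single changes of -0.49 at 1 h and 0.39 at 8 h of IL-1b were lost without any of 4 and 3 of their 4 libraries.

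The other 30 p53 targets moved in both directions after the stimuli, in both genotypes. Averaged at 3 h, 11 were higher and 8 lower in p53KO, where 62.6% of all genes passed, and 11 were higher and 6 lower in WT, where 44.8% did. The change differed between genotypes for 8 of the 30 at 3 h, where 9.98% of all genes passed, among them Phlda3 (-0.53 in p53KO and 0.11 in WT), Ak1 (-0.36 and -0.06) and Eda2r (0.70 and -0.12). Eda2r lay at only 0.833 to 4.14 CPM over the p53KO libraries, against 45.6 to 84.7 CPM in WT. Its relative rise in p53KO is thus one from a low level. Of the 15 upstream regulators, 5 were higher and 4 lower in p53KO at 3 h and 3 and 5 in WT, beside the same 62.6% and 44.8% of all genes, and Cdkn2a passed in neither (0.17 and 0.18). Of the 7 paralogs and other CDK inhibitors, 1 was higher and 5 were lower in p53KO at 3 h, and 1 and 4 in WT, beside the same shares. Cdkn1b, the p27 inhibitor, fell by 0.51 in p53KO and by 0.60 in WT at the time at which Cdkn1a was higher, and Ccng2 by 0.72 and 0.51.

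Over all 45 libraries the genes whose log2 level followed Cdkn1a most closely were Ecm1 (Pearson r 0.982), Cd80 (0.979), Serpine2 (0.970), Eda2r (0.970) and Tnfrsf10b (0.966), among 10534 genes. For Mdm2 they were Ddias (0.963), Eda2r (0.959), Lgals3 (0.953), Cd109 (0.953) and Snx7 (0.949). Cdkn1a and Mdm2 both had every WT library above every p53KO library, so the genotype difference enters these values. Its part in them was not tested. Within the 15 WT libraries the order was another: Btg1 (0.912), Zc3h12a (0.906), Ptx3 (0.900), Ch25h (0.896) and Gdnf (0.890) were nearest to Cdkn1a, and Brd2 (0.897), Hspa13 (0.887), Chka (0.880), Clk1 (0.873) and Cpeb2 (0.857) to Mdm2. The libraries share their replicates and times, so these values describe likeness and carry no p-value.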

How the data were processed

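The deposited table holds raw read counts per Ensembl gene for the 45 libraries, made by the authors from poly(A) RNA (TruSeq Stranded mRNA kit, paired-end 50 bp, per the labels' protocols). STAR, featureCounts, DESeq and build mm9 are named in the submitters' processing notes; versions, annotation release and strand setting are not given in the sources used here, and Gm12981, which overlaps Sesn2 on the same strand, is the one annotated overlap found among the 10 genes (medians of 0.117 and 0.0979 CPM in WT and p53KO). The 5 rows that name no gene hold 24.65% of counts and were left out. Samples were grouped from their titles; 1 title reads "replicate 21" and was taken as KO-2. Symbols came from a name table that matched 32919 of 37991 IDs.

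edgeR 4.0.16 (R 4.3.3) was fitted to all genes with at least 1 CPM in 2 libraries (13851), with TMM scaling, 1 mean for each of the 30 groups and quasi-likelihood tests, and p-values were Benjamini-Hochberg adjusted over all genes of a contrast. WT groups hold 1 library, so the spread comes from the p53KO pairs (15 residual degrees of freedom). The quasi-likelihood fit also draws each gene's spread towards that of genes at large (median prior degrees of freedom 9.75). Levels were compared on counts summed per replicate (12918 genes, 1 residual degree of freedom). SE is the log2 change over the root of its F value. The fits were also run on simulated counts with the same spread for every gene and no difference between KO-1 and KO-2. That run cannot test the pairing or the lack of WT replicates. Alternatives were other size factors, DESeq2 1.42.0, no low-count filter, a replicate block, p53KO libraries alone, pooled 0 h libraries, the 0 h libraries alone and each p53KO library left out; chosen after seeing the data were removal of each library's length and GC trend, and leaving out both p53KO IL-1b 0.5 h libraries. The names KO-1 and KO-2 recur in the titles of every stimulus and time and were taken to mark the same cells throughout. The titles themselves do not say so. Over 105 pairs of groups, deviations of same-numbered libraries correlated at a median of 0.182 (-0.122 to 0.461), and 74 pairs were over 0.1. The main fit left this pairing out, so its counts are those without a block. No 2 libraries were identical. No label says whether time points came from separate cultures, so p-values measure the spread between these samples.

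The 10 genes and the lists (30 other p53 targets, 15 upstream regulators, 10 paralogs and other CDK inhibitors, 6 NF-kB response genes, markers of 6 cell types) were chosen with earlier results of these data known. Named are the 10 genes, up to 4 genes per other list with the smallest adjusted p between genotypes (Nfkbia alone for NF-kB), and the 5 genes most like Cdkn1a and Mdm2; Gadd45a, Ddb2 and the other genes singled out by their change were named after their values were seen. Promoter sequences are from RefSeq.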

Additional observations from a re-analysis of the deposited data

Results flagged for a closer look

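The results below stand out because the change after a stimulus differed between p53KO and WT in a test of the difference itself (adjusted p under 0.05 over all genes). Averaged over the 3 stimuli at 3 h, the p53KO minus WT difference in log2 change was 0.95 for Cdkn1a, 0.37 for Mdm2 and -2.05 for Psrc1. At 8 h it was -0.52 for Mdm2, -0.35 for Ccng1 and -0.88 for Psrc1. Mdm2 is the 1 gene of these whose difference has opposite signs at the 2 times. Over the 4 times of a stimulus, the adjusted p of the difference was 0.000442 for Mdm2 and 4.6e-05 for Psrc1 after IL-1b, 0.00989 for Mdm2 and 2.14e-05 for Psrc1 after TNF, and 0.000256 for Cdkn1a, 9.39e-05 for Mdm2 and 0.000108 for Psrc1 after LPS. All of these set 1 WT replicate against 2 p53KO replicates, and the 0 h libraries enter every time of a series. Their spread comes from the p53KO pairs alone, in the fit without the replicate block. No group holds 4 or more libraries, so none was tested for a library that stands apart.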

How the results depend on the processing

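No called value of the 10 genes turned its sign under any alternative run. All 8 differences in level and all 6 averaged differences between genotypes kept their side of the threshold in every alternative, and 6 of the 7 differences over the 4 times did. Of the 41 p53KO calls 27 held throughout, of the 22 averaged p53KO calls 15, of the 19 WT calls 14 and of the 14 averaged WT calls 10. With the replicate block 21 calls were gained and none was lost: 47 in place of 41 in p53KO, 25 in place of 19 in WT, 25 in place of 22 for averaged p53KO, 15 in place of 14 for averaged WT, 8 in place of 6 for the averaged difference and 10 in place of 7 for the differences over the 4 times; it changed no other call. With the 0 h libraries pooled, WT calls rose from 19 to 31, and with no filter on low counts the differences over the 4 times went from 7 to 11. DESeq2 gave 35 of 120 in p53KO and 14 of 120 in WT, and was not run for the differences over the 4 times. Counts over all genes moved by over 1.5 times in 16 of 37 contrasts with DESeq2 (ratios of 0.57 to 2), 15 of 24 with pooled 0 h libraries (1.2 to 2.74), 11 of 40 with no filter (0.853 to 10.7), 7 of 39 with the block (1.03 to 2.72), 22 of 174 with 1 library left out (0.16 to 1.33) and 1 of 39 with the length and GC trend removed (676 in place of 1024 genes, p53KO IL-1b at 0.5 h). In level, 3331 genes passed with 0 h libraries alone and 9112 with libraries as replicates, in place of 5213. Depth limits Psrc1 in p53KO most, with as few as 10 counts in a library. Leaving out a WT library was not run, since it empties a group; with KO-1 or KO-2 left out the level fit has no spread and gives values alone.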
